A study of Mus musculus with 71 samples.

Results

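The data compared here are the mRNA levels of pro-B cells whose only intact copy of Pax5 lacks the C-terminal regulatory domain 2 (CRD2) with those of wild-type pro-B cells. The members were all RNA-seq libraries that the labels give as Pax5(DCRD2/-) pro-B cells, 2 in number, and as Pax5(+/+) pro-B cells, 5 in number, thus 7 of the 48 RNA-seq libraries and of the 71 samples of the series. Genes were described where they exceeded 1 TPM (the transcripts of a gene, corrected for its length and scaled to a fixed library total) in at least 1 of the 7 libraries, which held for 13038 of 25579 genes. The series examines which parts of the Pax5 protein are needed to activate and repress genes in early B cell development. All pro-B cells were sorted from the bone marrow of C57BL/6 mice by surface markers that include B220 and Kit and by the absence of CD2, IgM and IgD. The mutant mice carried 1 CRD2-deleted allele made in zygotes with CRISPR-Cas9, on a line backcrossed to C57BL/6 for 10 generations, and 1 null allele. Both mutant libraries are therefore hemizygous for the deletion, and a difference from wild-type cells can come from the missing domain, from the missing second copy or from both, which cannot be told apart in this comparison. The libraries carry no label of age, although the study examined mice with C-terminal deletions at 3 to 5 weeks, and nothing states that replicates came from separate mice, so the p-values measure the spread between these libraries, which may be technical.

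For comparison on the same scale, 2 libraries each were used of Pax5(DCRD1/-) pro-B cells, in which the transactivation domain was deleted over the null allele, of Pax5(DCRD2/DCRD2) pro-B cells, which carry the CRD2 deletion on both alleles, of Vav-Cre Pax5(fl/+) pro-B cells and of Vav-Cre Pax5(fl/fl) progenitors. Vav-Cre is active from the haematopoietic stem cell onwards in all blood lineages, so that the fl/+ cells kept 1 full-length Pax5 copy and the fl/fl progenitors kept none. The fl/fl progenitors were sorted with other markers than the pro-B cells.

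Pax5 is the transcription factor that commits lymphoid progenitors to the B cell lineage. It switches on genes of the B cell receptor pathway and holds down genes of other lineages. The protein binds DNA through its paired domain at the N-terminus, and its C-terminus carries a transactivation domain followed by an inhibitory sequence, the region to which CRD2 belongs. Pro-B cells are the stage at which the heavy chain locus is rearranged, and they express the surrogate light chain, the recombinase and the receptor for IL-7.

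The deletion is shown first as sequence because it is small. In the RefSeq transcript, Pax5 has 391 amino acids and 10 coding exons, and the change lies in exon 10, the last one, at chr4:44531506-44531582 on the minus strand of GRCm38. The coding bases of this exon in the reference are given first, with the bases that were replaced in capitals. The start of the same stretch of the repair template follows, with the bases put in their place in capitals. The template line is cut shortly after the change, so its shorter length marks no deletion.
Reference exon 10: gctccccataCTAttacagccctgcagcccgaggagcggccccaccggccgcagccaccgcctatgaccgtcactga
Repair template: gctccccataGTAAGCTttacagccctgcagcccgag
In the template 7 bases took the place of 3, which created 2 stop codons in a row and a HindIII site that the reference stretch lacks. The encoded protein ends after amino acid 369, so 22 amino acids are lost. The Cas9 target lay at chr4:44531557-44531579 and is printed on the plus strand, opposite to the gene and with its PAM in capitals. The lower-case part covers the replaced bases. The study lists the guide as the reverse complement of these letters, and on that strand no NGG follows it in the reference.
Guide target: tgcagggctgtaatagtatgGGG

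The 7 libraries held between 25403933 and 34905750 reads assigned to genes. Wild-type replicates 3 and 4 and both mutant libraries had been sequenced to 100 nt, and wild-type replicates 1, 2 and 5 to 50 nt. Read length entered the model as a term, so each fold change sets the mutant against wild-type replicates 3 and 4, while all 7 libraries contributed to the spread. The 50 nt and 100 nt libraries carry label numbers of separate ranges, so read length cannot be told apart from any batch that follows it. The summed level of 13 pro-B cell markers was 16700 to 21000 TPM in wild-type and 19600 to 23100 TPM in mutant libraries, with none of 13 passing the test and none under 1 TPM in either genotype. The summed level of 20 granulocyte and monocyte markers was 961 to 7600 TPM in wild-type libraries, with the highest values in replicates 4 and 5, and was 18100 TPM in mutant replicate 1 against 1350 TPM in mutant replicate 2. None of the 19 such markers tested passed. Of the other marker lists, macrophage, erythroid, T cell, NK cell, dendritic cell, plasma cell and megakaryocyte, none had a member that passed. Macrophage markers summed to 54.8 to 139 TPM in wild-type and to 44.9 and 105 TPM in mutant libraries, and NK cell markers to 24.9 to 46.1 TPM and to 25.7 and 47.9 TPM. T cell markers summed to more in both mutant libraries, at 286 and 334 TPM, than in any wild-type library, at 213 to 267 TPM. Much of this came from Lck, at 112 and 136 TPM in the mutant, and Lat, at 89.2 and 106 TPM. Of the 8 T cell markers tested only 4 had a positive log2 fold change, and their median of 0.05 equalled that of all genes. Dendritic cell markers were at 31.2 and 60.6 TPM against 22.2 to 52.5 TPM, and the erythroid, plasma cell and megakaryocyte sums of the mutant lay within the wild-type range. The markers of later B cell stages were lower in both mutant libraries, 815 and 827 TPM in sum, than in any wild-type library, 1000 to 1670 TPM, although none of the 14 tested passed. Spib was the highest member of this list, at 393 and 410 TPM in the mutant against 472 to 758 TPM in wild type. Of the 14 tested, 5 had a positive log2 fold change, and the median was -0.34. In bulk samples fewer cells of a type and less RNA per cell cannot be told apart.

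Pax5 itself, the targeted gene, was measured at 498, 524, 342, 360 and 489 TPM in wild-type replicates 1 to 5 and at 241 and 304 TPM in the 2 mutant libraries. Both mutant values lay below all wild-type values. The log2 fold change was -0.37 (95% interval -0.72 to -0.03) with a limma adjusted p of 0.673, so the difference did not pass the test across all genes. The mutation leaves nearly the whole transcript in place and the counting sums both alleles, so that neither the deletion nor the null allele can be checked from gene-level values. Set against Vav-Cre Pax5(fl/+) pro-B cells at 620 and 618 TPM, Pax5 mRNA was 1.19 lower on the log2 scale in Pax5(DCRD2/-) cells (adjusted p = 0.0112, limma), and it was 0.67 lower than in Pax5(DCRD1/-) cells at 451 and 410 TPM (adjusted p = 0.0281). Against Pax5(DCRD2/DCRD2) cells at 512 and 464 TPM the log2 difference was -0.85 with an adjusted p of 0.0522. The 2 hemizygous CRD2 libraries thus had the lowest Pax5 mRNA of all the genotypes compared. The fl/fl progenitors, which carry transcripts of deleted alleles, were at 1610 and 1700 TPM, and the reason for this level was not tested. Pax5 mRNA in fl/+ cells was itself 0.82 above wild type on the log2 scale (95% interval 0.53 to 1.11, limma adjusted p = 0.0201). The fl/+ cells carry 1 deleted allele, and the counting sums both alleles. Their level therefore does not stand for the full-length copy alone, and its cause was not tested.

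Across the genome few genes differed. Leaving out immunoglobulin and histone rows, 35 of 12737 genes passed an adjusted p under 0.05 (0.275%), 24 lower (0.188%) and 11 higher (0.0864%) in the mutant. A gene was called past all thresholds when its fold also exceeded 3 and its mean exceeded 5 TPM in 1 of both genotypes. This held for 21 genes (0.165%), of which 16 were lower (0.126%) and 5 higher (0.0393%). Of the 5 higher rows, 2 were the microRNA precursors Mir6935 and Mir6963, which had no read in wild-type replicates 3 and 4 and at most 10 reads in any other of the 7 libraries. In the 50 nt wild-type libraries Mir6935 was at 5.99 to 15.6 TPM, above both mutant values of 1.24 and 4.63 TPM, and Mir6963 was at 1.21 to 4.05 TPM, around the lower mutant value of 2.23 TPM. Both rows were set aside after their values were seen, which leaves 19 genes, 16 lower and 3 higher. For these 19 genes the mutant and wild-type values did not overlap in any case. The 19 were chosen by p and fold from these same libraries, so this separation carries no independent weight. The share of separated genes among all genes tested is not given here. At an unadjusted p under 0.05 there were 886 genes, and the median log2 fold change of all genes tested was 0.05. The counts rest on few libraries. Without wild-type replicate 3 only 1 gene was past the thresholds, without mutant replicate 1, the library with the high granulocyte markers, 4 were, and without mutant replicate 2 none was, with 598 genes at an unadjusted p under 0.05. Without wild-type replicate 4 the total was 22 with 11 lower and 11 higher. DESeq2 on recovered reads called 38 genes and edgeR 31, and both lists held all 19.

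**Figure D1:**
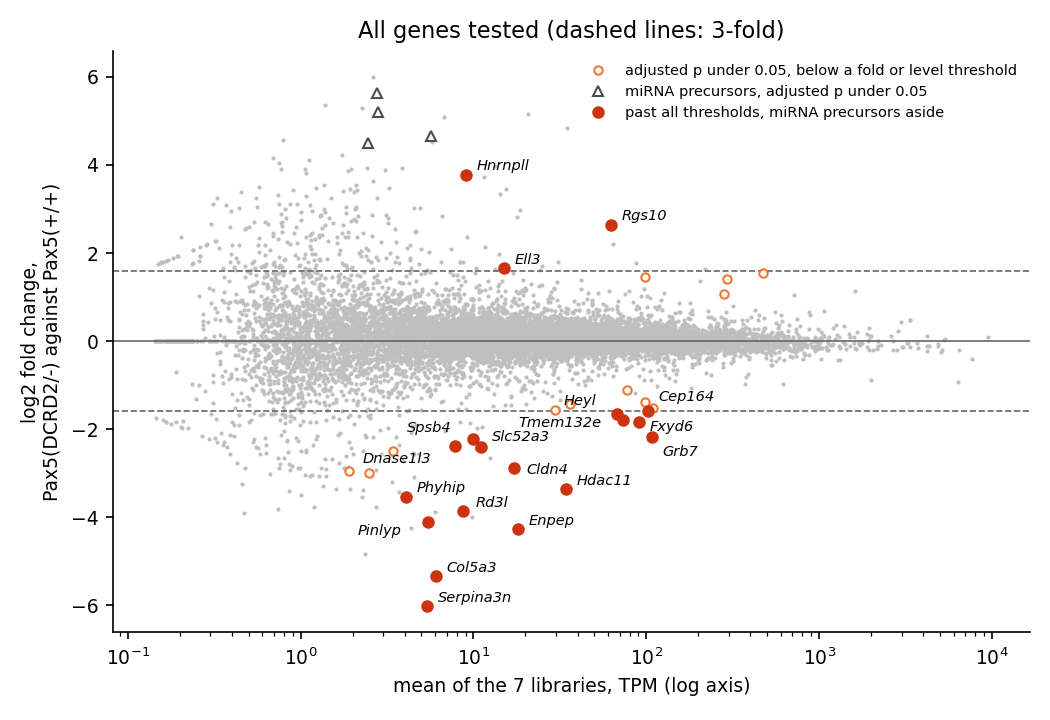
Each point is 1 gene tested, with its mean level over the 7 libraries in TPM on a log axis and its log2 fold change, Pax5(DCRD2/-) against Pax5(+/+). Filled red points are the 19 genes past all thresholds, open circles pass the adjusted p alone, triangles are microRNA precursors, and dashed lines mark a 3-fold difference. The 16 lower genes reach from Cep164 near the dashed line to Serpina3n at -6.01.

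Among the 16 lower genes the first set codes for secreted and surface proteins. Enpep encodes glutamyl aminopeptidase, the BP-1 antigen that appears on early B cells on the way to the pre-B stage. It was at 27.0, 18.8, 25.4, 29.7 and 23.1 TPM in wild-type replicates 1 to 5 and at 1.32 and 1.34 TPM in the mutant libraries. Every wild-type value lay far above both mutant values, and the gene was 19.3-fold lower (log2 fold change -4.27 ± 0.23, SE, adjusted p = 8.77e-04). Enpep lies at chr3:129269177-129332749. It was the gene with the smallest p of all genes tested, and its call held when mutant replicate 1 or any 1 wild-type library was left out.

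Serpina3n, a secreted inhibitor of serine proteases, was at 2.4, 8.69, 11.7, 8.35 and 6.56 TPM in wild-type libraries and at 0.0758 and 0.0356 TPM in the mutant. Wild-type replicate 1 was the lowest of its group and still above both mutant libraries. Since these mutant values stand for 3 reads in all, against 550 reads in wild-type replicates 3 and 4, the mutant level was 0.546% of wild type per read assigned, with an exact 95% counting interval of 0.112 to 1.6%. Serpina3n is 1 of a cluster of similar genes on chromosome 12, so reads may be shared with its paralogs. Col5a3, a chain of type V collagen, was at 12.3, 12.3, 5.94, 6.25 and 5.65 TPM in wild-type and 0.0906 and 0.0243 TPM in mutant libraries. Wild-type replicates 1 and 2 were the highest, and the groups did not overlap. Its 9 mutant reads against 995 gave 0.906% of wild type (0.413 to 1.73%), and these intervals cover counting error only. The fitted log2 fold changes of -6.01 for Serpina3n (adjusted p = 0.01) and -5.33 for Col5a3 (adjusted p = 0.00535) depend on the pseudocount of 0.1 TPM.

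Cldn4, a claudin of tight junctions, fell from 16.8 to 29.7 TPM in wild-type libraries to 2.71 and 3.93 TPM in the mutant (7.34-fold, adjusted p = 0.0155). Dnase1l3, a secreted endonuclease that degrades chromatin from dead cells, was at 7.42 to 12.9 TPM in wild-type cells and at 1.90 and 2.00 TPM in the mutant, 5.25-fold lower (adjusted p = 0.0277). Slc52a3, a riboflavin transporter, was 5.28-fold lower, at 2.86 and 2.68 TPM against 11.4 to 17.8 TPM. Fxyd6, a small membrane protein that modulates the sodium-potassium pump, was 3.58-fold lower, at 31.7 and 37.5 TPM against 98.2 to 135 TPM. Tmem132e, a transmembrane protein, was 3.48-fold lower, at 22.6 and 28.2 TPM against 76.4 to 107 TPM. Pinlyp, a protein with a Ly6/PLAUR domain, was 17.3-fold lower, at 0.433 and 0.508 TPM against 4.72 to 10.5 TPM. For all 6 the mutant values lay below the lowest wild-type value, and Cldn4, Dnase1l3, Slc52a3 and Pinlyp stayed at a few TPM or less.

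The second set acts inside the cell. Hdac11, the only class IV histone deacetylase, was at 48.6, 57.9, 48.8, 43.0 and 33.8 TPM in wild-type replicates 1 to 5 and at 3.20 and 5.95 TPM in the mutant. The groups were far apart even though wild-type replicate 5 was low, and Hdac11 was 10.3-fold lower (log2 fold change -3.36 ± 0.33, adjusted p = 0.01). The gene lies at chr6:91156670-91174692. It was the only 1 of 18 histone deacetylase and sirtuin genes to pass, and the other 17 had log2 fold changes of -0.24 to 0.27. Grb7, an adaptor with an SH2 domain that binds receptor tyrosine kinases, was at 112, 150, 172, 135 and 123 TPM in wild-type cells and at 32.3 and 34.8 TPM in the mutant. The mutant libraries lay close together and below all wild-type values, and Grb7 was 4.54-fold lower (log2 fold change -2.18 ± 0.19, adjusted p = 0.00535). It was the most abundant of the 16 lower genes in wild-type cells.

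Heyl, a basic helix-loop-helix repressor known as a target of Notch signalling, was 3.14-fold lower, at 25.2 and 31.2 TPM against 73.7 to 105 TPM (adjusted p = 0.0247). Cep164, a centriole protein needed to build cilia, was 3.02-fold lower, at 36.7 and 41.5 TPM against 105 to 147 TPM (adjusted p = 0.0318), which is just past the 3-fold threshold. Spsb4, a substrate adaptor of a ubiquitin ligase, was 4.63-fold lower, at 2.52 and 3.26 TPM against 10.6 to 14.9 TPM. The last pair, Rd3l and Phyhip, dropped to near or under 1 TPM. Rd3l was 14.5-fold lower, at 1.04 and 0.682 TPM against 8.15 to 14.0 TPM, and Phyhip, named as an interaction partner of phytanoyl-CoA hydroxylase, was 11.6-fold lower, at 0.397 and 0.532 TPM against 3.54 to 7.65 TPM.

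**Figure D2:**
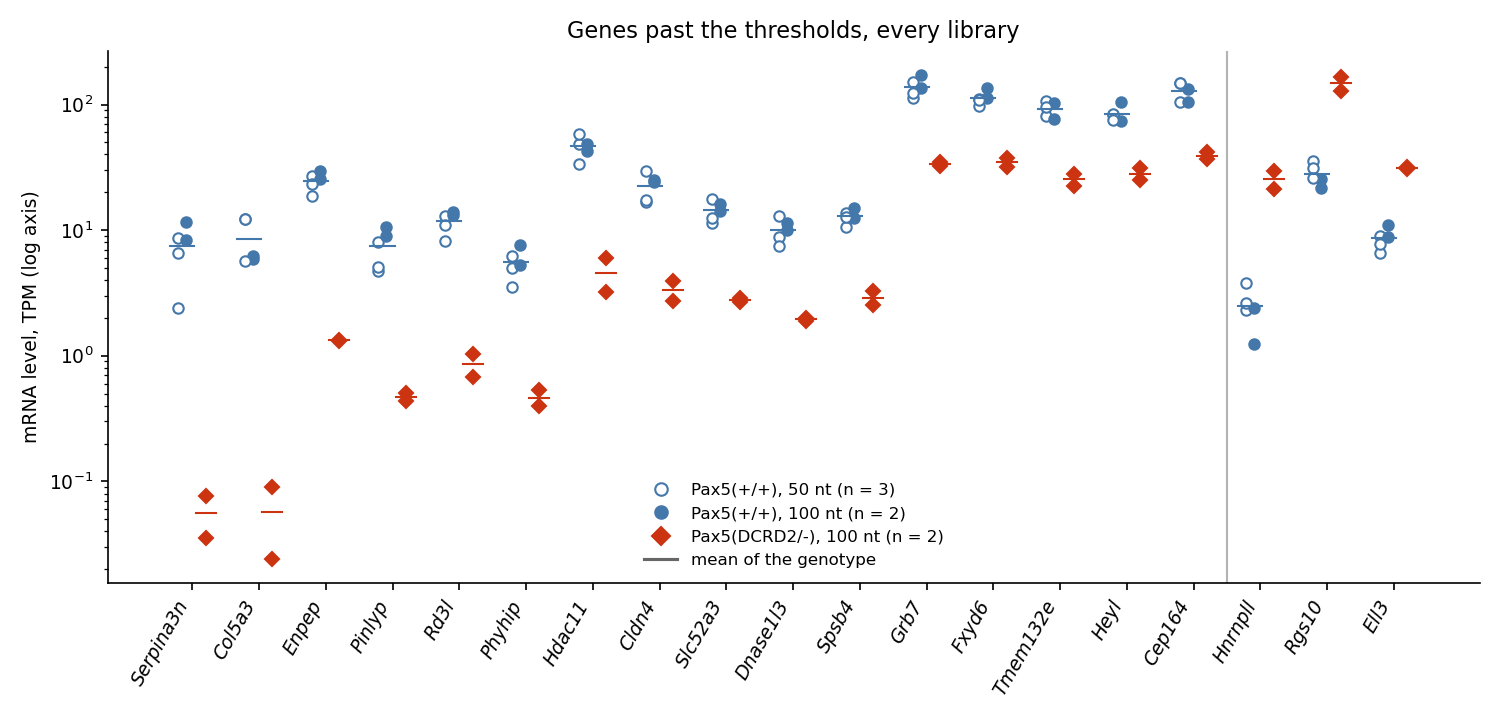
TPM on a log axis in every library for the 19 genes past the thresholds, with 50 nt wild-type libraries as open circles, 100 nt wild-type libraries as filled circles, mutant libraries as diamonds and the mean of each genotype as a short line. Mutant diamonds lie below all wild-type circles for the 16 genes left of the vertical line and above them for Hnrnpll, Rgs10 and Ell3.

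Only 3 genes apart from microRNA precursors were higher past the thresholds. Rgs10 encodes a regulator of G-protein signalling that speeds up GTP hydrolysis by G-protein alpha subunits, and lies at chr7:128373621-128419506. It was at 35.8, 31.0, 21.5, 25.4 and 26.2 TPM in wild-type replicates 1 to 5 and at 129 and 167 TPM in the mutant. The lower mutant value was several times the highest wild-type value, and Rgs10 was 6.25-fold higher (log2 fold change 2.64 ± 0.21, adjusted p = 0.00535). Hnrnpll, an RNA-binding protein that directs exon skipping in the Ptprc (CD45) transcript, was at 3.82, 2.32, 1.23, 2.4 and 2.61 TPM in wild-type and at 29.7 and 21.1 TPM in mutant libraries. Wild-type replicate 3 was the lowest of the 5, and no value of the groups overlapped. The fold was 13.8 (log2 fold change 3.78 ± 0.40, adjusted p = 0.0142). Hnrnpll lies at chr17:80029487-80062268. Ell3, a member of the ELL family of transcription elongation factors, was at 6.59, 8.93, 11, 8.80 and 7.70 TPM in wild-type and at 30.7 and 31.9 TPM in mutant libraries. Both mutant values were nearly equal and above all wild-type values, and the gene was 3.16-fold higher (log2 fold change 1.66 ± 0.23, adjusted p = 0.0349).

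A further 14 genes passed the adjusted p but missed the fold or the level. Trf, the iron carrier transferrin, was at 162, 178, 222, 199 and 181 TPM in wild-type replicates and at 495 and 620 TPM in the mutant, 2.64-fold higher (adjusted p = 0.0155). Ly6d, a surface protein that marks lymphoid progenitors specified to the B lineage, was at 399, 478, 298, 239 and 334 TPM in wild-type and at 692 and 891 TPM in mutant libraries, 2.94-fold higher (adjusted p = 0.0349). Neither gene's groups overlapped. Myl12b, a regulatory light chain of non-muscle myosin, was 2.09-fold higher, at 430 and 459 TPM against 205 to 237 TPM. Lower genes of this set were Ehd2, a membrane-remodelling ATPase of caveolae (2.61-fold), Gadd45b, a stress-induced growth arrest gene (2.67-fold), and Map7, which stabilises microtubules (2.15-fold). Bcat1, the cytosolic branched-chain aminotransferase, was 2.94-fold lower, at 16.6 and 11.8 TPM against 28.7 to 45.3 TPM (adjusted p = 0.0424). The small GTPase Rasl10a and the somatostatin receptor Sstr2 were 7.95-fold and 5.65-fold lower but at low levels, with wild-type means under 5 TPM. Another 2 of the 14 were the microRNA precursors Mir7024 and Mir6955, again with no read in wild-type replicates 3 and 4. The remaining 3, which the naming rule did not pick, were Adgrg3, Alpl and Ppl, with log2 fold changes of 1.46, -1.53 and -2.96.

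The Pax5(DCRD2/-) cells differ from wild type both in CRD2 and in the number of Pax5 copies. Their levels were therefore set beside cells with CRD2 deleted on both alleles and cells with a single full-length copy. These comparisons share the mutant libraries with the comparison above and are not independent of it. Directly against Pax5(DCRD2/DCRD2), 18 of 13028 genes passed the adjusted p (0.138%), 15 lower (0.115%) and 3 higher (0.023%) in the hemizygous cells. Past all thresholds there were 5 genes (0.0384%), none of them higher, although 781 genes had an unadjusted p under 0.05. Of the 19 genes 7 passed the adjusted p. They were Serpina3n, Col5a3, Enpep, Rd3l, Hdac11 and Tmem132e, all lower with 1 copy than with both, and Rgs10, higher with 1 copy. All 16 lower genes had negative log2 differences in this comparison with a median of -1.77, against a median of 0.03 over all genes. Without replicate 1 of either genotype or without mutant replicate 2 no gene was past the thresholds, and without Pax5(DCRD2/DCRD2) replicate 2 there were 41. Granulocyte and monocyte markers summed to 10900 TPM in Pax5(DCRD2/DCRD2) replicate 1 and to 758 TPM in replicate 2, and their part in these counts was not tested.

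The values by library show the difference between the single and the double copy. Percentages of wild type, here and below, are of the mean of all 5 wild-type libraries. They take no account of read length, unlike the fitted fold changes against wild type. Enpep was at 13.4 and 21.5 TPM in Pax5(DCRD2/DCRD2) cells, 70.3% of the wild-type mean, against 5.35% in Pax5(DCRD2/-) cells. The direct log2 difference was -3.58 (95% interval -4.32 to -2.84, adjusted p = 0.0124). Hdac11 was at 34.5 and 30.4 TPM with both copies, 69.9% of wild type, against 9.86% in the hemizygous cells, a log2 difference of -2.86 (-3.56 to -2.17, adjusted p = 0.0196). Across the 16 lower genes the median level was 67.9% of wild type with CRD2 deleted on both alleles, with a range of 30.7 to 139%, and 17.0% in the hemizygous cells, with a range of 0.676 to 33.6%. With both copies, 8 of the 16 had both values below every wild-type library. Since the 16 were chosen for being low in the hemizygous cells against these same wild-type libraries, these medians and this count are a description. The share of all genes so placed is not given here. Hnrnpll was at 14.5 and 18.6 TPM with both copies, and its log2 difference of 0.60 from the hemizygous cells (-0.16 to 1.37, adjusted p = 0.926) left the order undecided.

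A single full-length copy, in Vav-Cre Pax5(fl/+) cells, matches the mutant in the number of Pax5 copies left. Their libraries came from another sequencing experiment, so that genotype and experiment cannot be told apart, and this comparison was added after the data were seen. Of 12830 genes 198 passed the adjusted p (1.54%), 60 higher (0.468%) and 138 lower (1.08%) in Pax5(DCRD2/-) cells, and 33 were past all thresholds (0.257%), 17 higher (0.133%) and 16 lower (0.125%). Of the 19 genes 10 passed the adjusted p, all in the direction seen against wild type. The 8 lower ones were Pinlyp, Cldn4, Slc52a3, Spsb4, Grb7, Fxyd6, Heyl and Cep164, and the 2 higher ones were Rgs10 and Hnrnpll. The count past the thresholds fell to 1 without mutant replicate 1, to 19 without mutant replicate 2, to 0 without fl/+ replicate 1 (1537 genes at an unadjusted p under 0.05) and to 2 without fl/+ replicate 2. DESeq2 gave 118.

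The other 9 of the 19 genes did not pass between the single full-length copy and the mutant, and for 4 of them, Col5a3, Enpep, Dnase1l3 and Phyhip, the 95% interval held 0. Col5a3 was at 0.0558 and 0.0343 TPM in fl/+ cells, and its log2 difference from Pax5(DCRD2/-) cells was 0.09 with an interval of -1.0 to 1.18. Enpep was at 3.91 and 1.21 TPM in fl/+ cells, 10.3% of the wild-type mean, with a log2 difference of -0.69 (-1.70 to 0.33). Dnase1l3 was at 2.68 and 2.38 TPM, with a log2 difference of -0.35 (-1.0 to 0.29). Phyhip was at 0.759 and 1.08 TPM, with a log2 difference of -0.84 (-1.71 to 0.02). Differences of any size within these intervals remain possible. Ell3 was at 21.2 and 19.2 TPM in fl/+ cells, with a log2 difference of 0.63 (0.18 to 1.08, adjusted p = 0.114). Hdac11 was at 10.7 and 10.6 TPM in fl/+ cells, 23.0% of wild type, and was lower still in the mutant by a log2 difference of -1.27 (-1.98 to -0.55) that missed the threshold (adjusted p = 0.0733).

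Set against wild type in the same model, Vav-Cre Pax5(fl/+) cells had 554 genes past the adjusted p (4.32%), 140 lower (1.09%) and 414 higher (3.23%). Of the 16 lower genes 11 were among the lower ones, all but Cldn4, Slc52a3, Grb7, Heyl and Cep164, and of the 3 higher genes Rgs10 and Ell3 were among the higher ones. Both comparisons share the wild-type libraries. Rgs10 was 2.22-fold (adjusted p = 0.0318) and Ell3 2.04-fold (adjusted p = 0.0318) above wild type in fl/+ cells, while Hnrnpll had a log2 fold change of 1.06 (0.23 to 1.89) that did not pass (adjusted p = 0.119). The 13 calls among the 19 genes became 1 without wild-type replicate 3, 5 without wild-type replicate 4, 1 without fl/+ replicate 1 and 0 without fl/+ replicate 2, where 13 had an unadjusted p under 0.05, and 18 by DESeq2.

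The genes that passed between the mutant and fl/+ cells stood at different distances from wild type with a single full-length copy. Grb7 was at 115 and 78.3 TPM in fl/+ cells, 69.7% of the wild-type mean, and 1.5 lower in Pax5(DCRD2/-) cells as a log2 value (limma adjusted p = 0.0246). Cldn4 was at 14.8 and 12.1 TPM, 59.4% of wild type, against 14.7% in the mutant (adjusted p = 0.0269). Heyl at 65.3% and Cep164 at 68.4% of wild type in fl/+ cells were likewise higher than in the mutant at 33.6% and 30.7%. Hnrnpll was at 3.64 and 3.77 TPM in fl/+ cells, below the highest wild-type library at 3.82 TPM but above the 100 nt wild-type libraries at 1.23 and 2.4 TPM, and 2.72 higher on the log2 scale in the mutant (adjusted p = 0.0229). Rgs10 was at 62.2 and 43.5 TPM in fl/+ cells and 1.5 higher on the log2 scale in the mutant (adjusted p = 0.0252). Trf, at 115 and 111 TPM in fl/+ cells, lay below the wild-type range there and was 2.29 higher on the log2 scale in Pax5(DCRD2/-) cells (adjusted p = 7.92e-04).

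**Figure D3:**
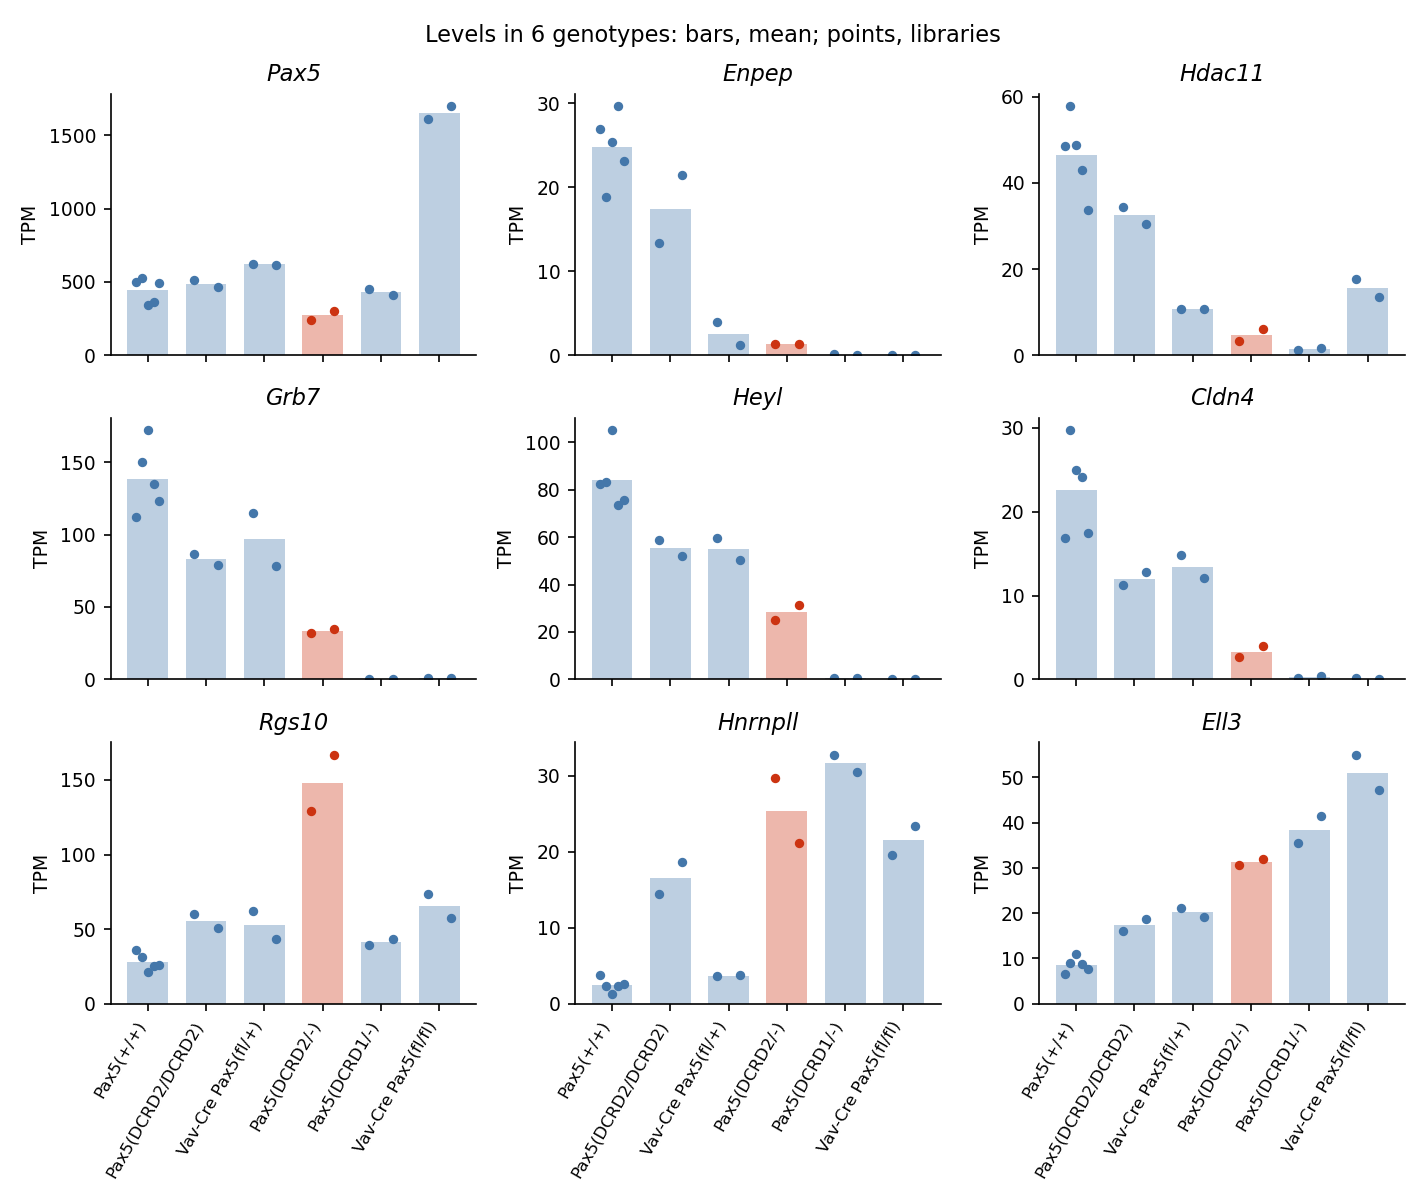
TPM of 9 genes in 6 genotypes, with bars for the mean, points for libraries and the Pax5(DCRD2/-) libraries in red. Enpep and Hdac11 are low in fl/+ cells as well as in Pax5(DCRD2/-) cells, Grb7, Heyl and Cldn4 are intermediate in fl/+ cells, and Rgs10 is highest in the hemizygous CRD2 deletion.

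Deleting the transactivation domain instead of CRD2, again over the null allele, gave lower levels in 9 of the same 16 genes. Directly against Pax5(DCRD1/-) cells, 351 of 13028 genes passed the adjusted p (2.69%), 264 higher (2.03%) and 87 lower (0.668%) in Pax5(DCRD2/-) cells. Past all thresholds were 102 genes (0.783%), 74 higher (0.568%) and 28 lower (0.215%), and without 1 library at a time the count was 41 to 68. Of the 19 genes 10 passed, and in each the CRD2 deletion had the higher level. Grb7 was at 0.586 and 0.367 TPM in Pax5(DCRD1/-) cells, a log2 difference of 5.89 ± 0.21 (adjusted p = 1.59e-06), and Heyl at 0.587 and 0.792 TPM, a difference of 5.17 ± 0.21 (adjusted p = 2.07e-06). The other lower genes that passed were Enpep, Hdac11, Cldn4, Dnase1l3, Spsb4, Fxyd6 and Tmem132e. The median level of the 16 genes was 2.87% of wild type in Pax5(DCRD1/-) cells and 1.06% in Vav-Cre Pax5(fl/fl) progenitors. In fl/+ cells it was 43.2%, and 15 of the 16 lay below every wild-type library. The 16 were chosen against these same wild-type libraries, and the share of all genes so placed is not given here.

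Rgs10 was the 1 gene of the 19 that passed against all 4 other pro-B genotypes, always higher in Pax5(DCRD2/-). It was at 39.1 and 43.6 TPM in Pax5(DCRD1/-) cells (log2 difference 1.83 ± 0.19, adjusted p = 0.001) and at 60.4 and 50.7 TPM in Pax5(DCRD2/DCRD2) cells (1.41 ± 0.19, adjusted p = 0.0295). Even the fl/fl progenitors, at 73.3 and 57.3 TPM, lay below both hemizygous CRD2 libraries at 129 and 167 TPM. Hnrnpll and Ell3 did not separate the deletions over the null allele. Hnrnpll was at 32.8 and 30.5 TPM in Pax5(DCRD1/-) cells, with a log2 difference of -0.34 (-1.10 to 0.43), and Ell3 at 35.5 and 41.4 TPM, with a log2 difference of -0.29 (-0.73 to 0.15). Trf was higher in Pax5(DCRD1/-) cells, at 980 and 930 TPM, than in the CRD2 mutant (log2 difference -0.79, adjusted p = 0.013), and so was Ly6d, at 1910 and 1960 TPM (log2 difference -1.30, adjusted p = 0.0118).

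**Figure D4:**
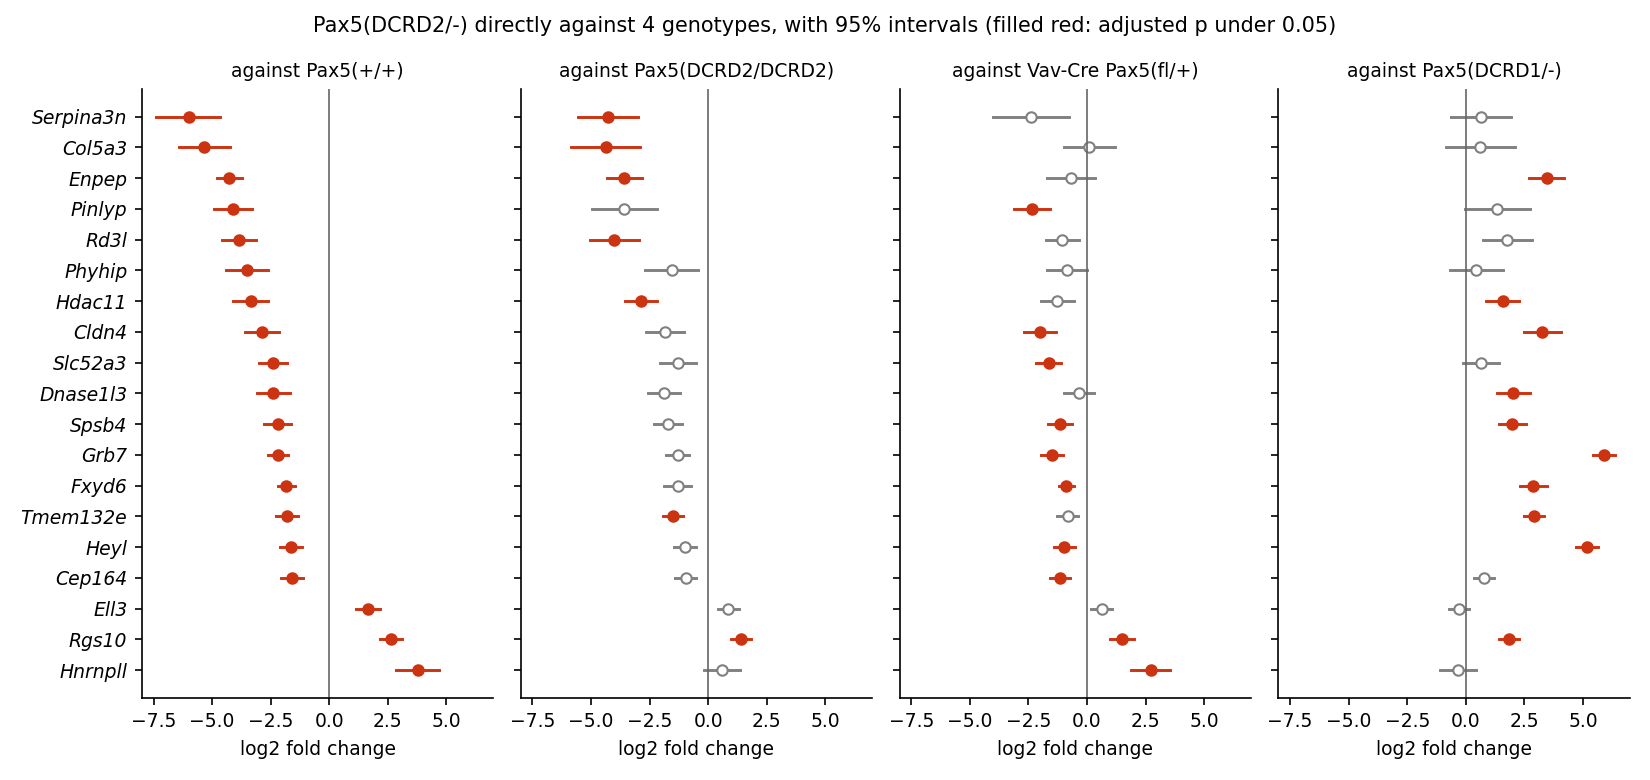
Log2 fold change with its 95% interval for the 19 genes in Pax5(DCRD2/-) cells directly against each of 4 genotypes, with filled red points for an adjusted p under 0.05. All 16 lower genes are negative against Pax5(+/+) and Pax5(DCRD2/DCRD2) and positive against Pax5(DCRD1/-), while Rgs10 is positive and called in all 4 panels.

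Pathway lists, 421 genes in 21 lists of which 367 were tested, give the wider picture. Of these genes 10 passed the adjusted p, where 0.275% of all genes did. They were Enpep and Ly6d among 17 surface antigens of the pro-B and pre-B stages, Cldn4 and Col5a3 among 25 integrins, claudins and collagens, Slc52a3 and Bcat1 among 25 genes of amino acid and vitamin metabolism, Hdac11, Rgs10 among 9 Rgs genes, Hnrnpll among 14 regulators of Ptprc splicing, and Ell3 among 12 elongation factors. Several lists had been drawn up around genes known to differ in these data, so these counts carry no independent weight. No member passed among 25 B-lineage transcription factors, whose log2 fold changes ranged from -0.54 to 0.67. Ebf1, which acts with Pax5 in B cell specification, was at 0.20 (95% interval -0.35 to 0.75), and Tcf3 (E2A) at -0.09 (-0.50 to 0.32). None of 30 genes of pre-BCR and BCR signalling passed either, with Igll1, the lambda5 surrogate light chain, at 0.03 (-0.39 to 0.44) and levels of 5410 and 6720 TPM in the mutant. None of 11 recombination genes passed. The 31 cell cycle and DNA replication genes stayed between -0.31 and 0.24 with none past an unadjusted p of 0.05.

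In some lists the values leaned to one side without a call. Of all genes tested, 58.2% had a positive log2 fold change and 886 of 13038 an unadjusted p under 0.05. All 8 Gimap genes, which encode small GTPases of lymphocyte survival, were positive with a median log2 fold change of 0.81 against 0.05 for all genes. Gimap3 was at 47.3 and 52.0 TPM in the mutant and at 10 to 21.1 TPM in wild-type cells (log2 fold change 1.69, adjusted p = 0.13), but similar family members can share reads. Of 23 genes of other lineages listed as held down by Pax5, 20 were positive with a median of 0.61 and 6 had an unadjusted p under 0.05. The list includes Notch1 and Notch2, which the study proposes are repressed without Pax5. It also includes genes such as Gpr25 and Il31ra that the study named from its own mutant comparisons. Among markers of other cells, 17 of 19 for granulocytes and monocytes were positive with a median of 0.60, and 7 of 7 for dendritic cells with a median of 0.71. Plasma cell markers had 5 of 6 positive with a median of 0.47. Other lists leaned down, with 1 of 12 macrophage markers positive (median -0.83), 1 of 7 erythroid markers (-0.55) and 0 of 5 NK cell markers (-0.30). The granulocyte and monocyte sum was at 18100 TPM in mutant replicate 1, and the part of such cells in these medians was not tested.

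Some single genes lay just outside the threshold. Cgas, the sensor of cytosolic DNA, was at 8.55 and 8.32 TPM in the mutant and at 1.85 to 3.23 TPM in wild-type cells (log2 fold change 1.85, adjusted p = 0.078). Aes, a short Groucho-family protein, was at 315 and 352 TPM against 639 to 867 TPM (log2 fold change -0.97, adjusted p = 0.0574). The 6 Groucho family genes tested had a median of -0.5. Tle2 at -1.6 and Tle6 at -1.39 also had an unadjusted p under 0.05, Tle1 was at -0.03, and Tle3 and Tle4 were at 0.09 and 0.15. Itgb4, an integrin beta chain, was at 1.18 and 1.24 TPM against 4.12 to 6.77 TPM (adjusted p = 0.062). Socs3, a feedback inhibitor of cytokine signalling, was at 4.62 and 2.69 TPM against 10.4 to 17.1 TPM (adjusted p = 0.087). Il7r, the IL-7 receptor alpha chain, was at 267 and 306 TPM in the mutant, above the wild-type range of 91.1 to 247 TPM, with an adjusted p of 0.18. For Cgas, Aes, Itgb4, Socs3 and Il7r the groups did not overlap, but all except Aes were chosen after their values were seen. Cd2, whose protein was used to gate the cells, was at 1.11 and 0.648 TPM against 2.89 to 7.79 TPM (adjusted p = 0.224).

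**Figure D5:**
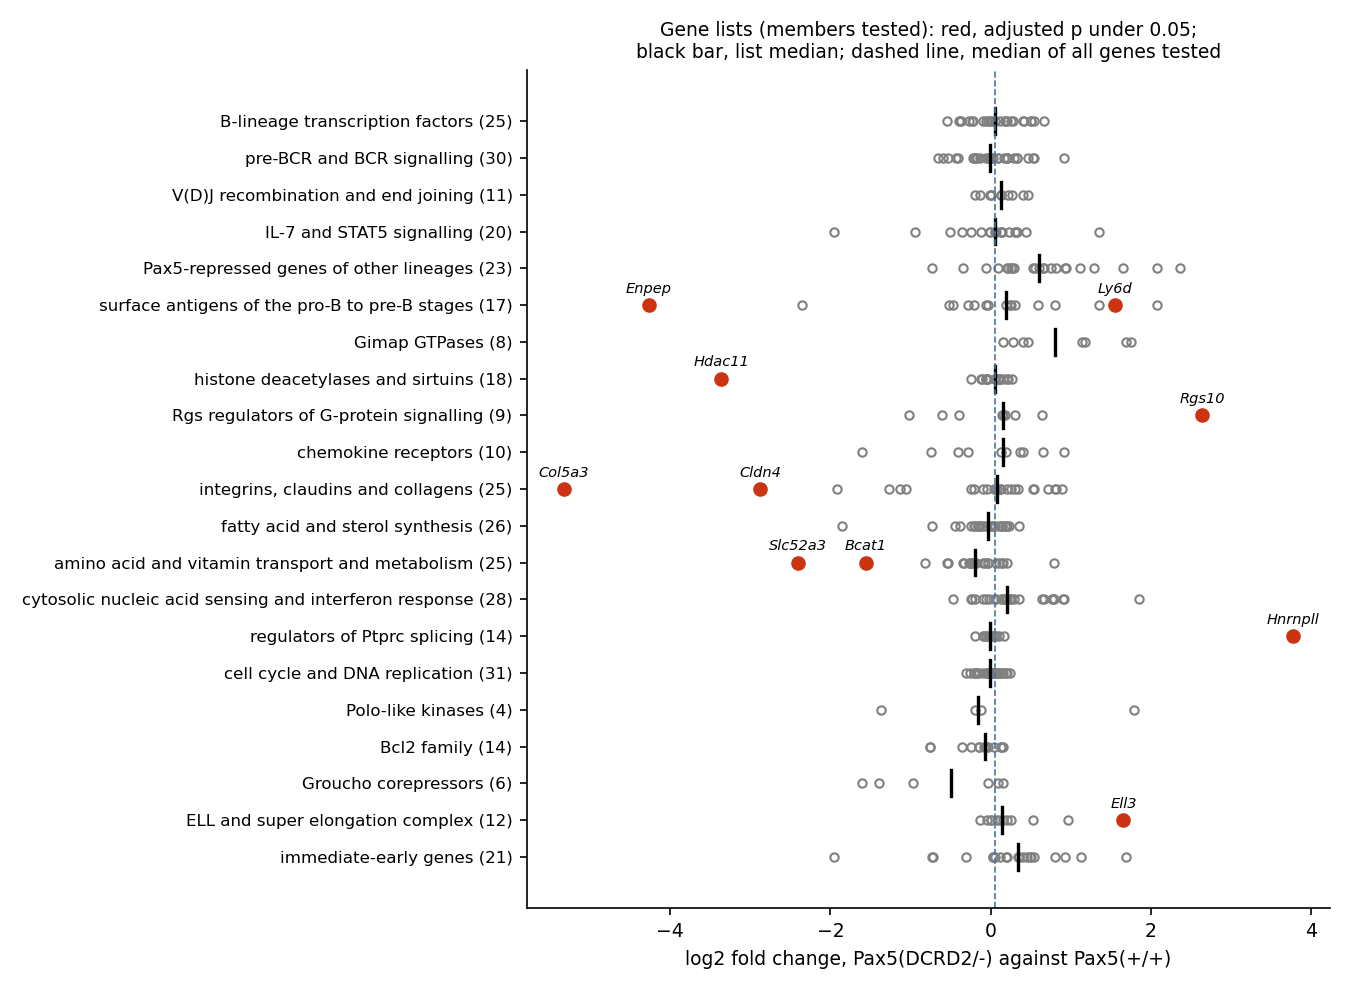
Log2 fold change, Pax5(DCRD2/-) against Pax5(+/+), of every tested member of 21 pathway lists, with members past an adjusted p of 0.05 filled in red and named, a black bar at each list's median and a dashed line at 0.05, the median of all genes. Gimap genes and genes of other lineages have medians of 0.81 and 0.61, with no member called.

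The promoters of the genes past the thresholds were read for the letters GCNTGAC on both strands, the core of the sequence that paired domain proteins bind. RefSeq windows from 250 bases before to 50 bases after the start were at hand for 13 of the 21 genes. The letters were present in 2 windows (15.4%), against 3518 of 32851 windows of all genes (10.7%). The 2 matches are printed because they sit in genes that fell several-fold. They are given on the strand of the gene with the motif in capitals.
Hdac11, chr6:91156626-91156652: gcggagctgcGCATGACcacgccctcc
Spsb4, chr9:97018524-97018550: cgctctccagGTCAGGCgccaagcttt
The Hdac11 match is on the gene strand, 179 bases before the transcript start that its window uses and 34 bases before the first annotated base of the gene. The Spsb4 match is on the other strand, 185 bases before the start by both measures, and all coordinates are those of GRCm38. A match is a description of letters and not a measured binding site.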

How the data were processed

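The authors trimmed all reads to 50 nt, aligned them to GRCm38/mm10 (STAR 2.4.2a per the labels), counted them per RefSeq gene and deposited TPM values. The deposited files also hold raw read counts for Pax5(+/+) replicate 3 and Vav-Cre Pax5(fl/+) replicate 1, from which gene lengths and whole reads were recovered for 16745 genes, and 100% of the values tested came out whole within 0.05 reads. For 185 of the genes tested no length could be recovered, and those are absent from the count tests. The Pax5(DCRD2/DCRD2) and Vav-Cre Pax5(fl/+) tables came without gene names, which were taken from the row order of the named tables. The unnamed Pax5(DCRD2/DCRD2) tables also hold the raw counts of Pax5(+/+) replicate 3, whose zeros matched its named TPM on 25579 of 25579 rows. For fl/+, gene lengths implied by both raw count columns kept 1 ratio within 1% on 100% of 10642 rows.

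Genes above 1 TPM in at least 1 library were tested with limma 3.58.1 in R 4.3.3 on log2(TPM + 0.1), two-sided, with a trend of the spread on level, read length as a term and p-values adjusted by Benjamini-Hochberg across every gene in the fit. Fold changes are on that scale and understate the change of low genes. Comparisons with Pax5(DCRD1/-) and Pax5(DCRD2/DCRD2) used 1 model of 11 libraries, that with fl/+ a model of 9. Immunoglobulin (419) and histone (85) rows were left out of counts after the test, and 1 immunoglobulin row had passed. edgeR 4.0.16 and DESeq2 1.42.0 were run on recovered reads as alternatives. On simulated data of 12742 genes with the design of Pax5(DCRD2/-) against Pax5(+/+), limma recovered 34.3% of genes changed 2-fold, 94% of those changed 4-fold and 97% of those changed 8-fold. Of 12542 unchanged genes limma called 13, edgeR 21 and DESeq2 28. Changes were planted only in well-covered genes. Both genotypes were drawn from wild-type means and spread without a read length effect, so the real libraries may do worse.

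Named genes were all past the thresholds (at most 40), the first 10 by p among those with an adjusted p alone, Pax5, and from each list its called members (at most 6) and its 2 most abundant. Genes outside this rule were chosen after their values were seen and are the uncalled list members beyond the most abundant, with Adgrg3, Alpl and Ppl. Some genes that the rule picks are not reported here. The libraries, lists and tests were chosen with earlier results of these data known. Coordinates and promoter windows are those of RefSeq on GRCm38.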

Additional observations from a re-analysis of the deposited data

Results flagged for a closer look

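Among the genes reported, 4 had 1 of the 5 wild-type libraries standing apart from the other 4 by Dixon's test at 95%, which chance alone gives in about 1 of 20 groups, and 6.13% of all genes tested did. S100a9, a granulocyte calprotectin subunit, was at 3140 TPM in wild-type replicate 4 and at 183 to 419 TPM in the other 4. Cxcr4, the receptor for CXCL12, was at 761 TPM in replicate 1 and at 408 to 480 TPM in the others. Lat was highest in replicate 2 at 76.3 TPM, against 48.2 to 54.8 TPM. Klrb1c was lowest in replicate 5 at 6.68 TPM, against 15.1 to 17.4 TPM. None of these genes passed the test between Pax5(DCRD2/-) and Pax5(+/+).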

How the results depend on the processing

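The 19 genes kept their direction in every alternative run. All 19 kept their adjusted p under pseudocounts of 1 and 0.01, a filter above 5 TPM, TMM scaling, no read length term, the model of 11 libraries, DESeq2 (with and without the read length term) and edgeR, and 18 did under quantile normalization, 16 with no filter, 13 with no trend and 11 with the 100 nt libraries alone. The 35 genes with an adjusted p became 21 with no filter on low values, 70 without the read length term, 13 with the 100 nt libraries, 75 in the model of 11, 206 by DESeq2 (303 without the read length term) and 85 by edgeR. The 21 genes past the thresholds became 12 with the 100 nt libraries and 38 by DESeq2 (44 without the read length term). The 10 called list members became 6 with the 100 nt libraries, 18 in the model of 11, 33 by DESeq2 (42 without the read length term) and 19 by edgeR. The cause of these shifts was not tested.

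Leaving out 1 library at a time gave 0 to 22 genes past the thresholds, 0 to 27 with an adjusted p, a share of lower genes of 50 to 100% (76.2% with all, 50% without wild-type replicate 4) and 0 to 9 list members. The lone library left in a genotype was assumed to vary like the others. The lowest counts were without wild-type replicate 3 and without either mutant library. Against Pax5(DCRD1/-) the 102 genes became 41 to 68. Against Pax5(DCRD2/DCRD2) the 5 genes became 0 to 41, 8 with a pseudocount of 1 or TMM, and 0 with the 4 libraries alone (659 at an unadjusted p under 0.05). Against fl/+, an alternative chosen after seeing the data, the 33 became 0 to 19, and 118 by DESeq2. The 13 of the 19 genes called in fl/+ against wild type, likewise added, became 0 to 14 with 1 library left out.

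The replicate numbers were not treated as pairs, although whether they mark pairs or a shared batch could not be checked. The labels give a number only, 2 pairs exist, and deviations of same-numbered libraries correlated at -0.04 with Pax5(DCRD1/-), at 0.17 with Pax5(DCRD2/DCRD2), and at -0.01 and 0.12 with wild type. These values decide little, since wild-type replicates 1 and 2 have 50 nt reads. Replicate 1 was also the library with the higher granulocyte and monocyte sum in both CRD2 genotypes, at 18100 and 10900 TPM. With the number as a block and no read length term, 0 genes passed an adjusted p, 0 the thresholds and 0 list members (4122 genes at an unadjusted p under 0.05). In this fit the mutant is set against wild-type replicates 1 and 2 only, since the other wild-type libraries each stand alone in a block. Very few degrees of freedom are left for the spread, so the lack of calls decides nothing about pairing. In the 4 libraries compared, the block gave 119 genes against Pax5(DCRD1/-) and 0 against Pax5(DCRD2/DCRD2) (795 at an unadjusted p).

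For Pax5 mRNA the log2 fold change of -0.37 became -0.68 without the read length term and -0.64 by DESeq2 without it (adjusted p = 0.033). It became -0.91 with the block, which uses only the same-numbered wild-type libraries, and -0.54 to -0.21 with 1 library left out. Mir6935 turned to -1.10 by DESeq2 without the read length term and to -1.78 with the block, Mir7024 to -0.71 and Mir6955 to -0.60 with the block. Depth limits the genes near 0 reads, Serpina3n and Col5a3 in the mutant and the microRNA precursors.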
